A study of Rattus norvegicus with 9 samples.

Results

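The collagen chain genes of cultured neonatal rat cardiomyocytes were described after infection with 1 of 3 lentiviruses. Members were the rows of the deposited tables whose symbol is Col, a number, a and a number, with a mean expected count of at least 10 over the 9 libraries. The tables list 27 such symbols among 14607 genes, and 24 of them were members. Of these, 9 code for fibrillar collagens, 5 for basement membrane collagens and 10 for other collagens. All 24 passed the filter on low counts and entered the tests, which covered 11761 genes. Nearest the limit, Col26a1 had a mean of 13.7 expected counts and was a member, while Col2a1 with a mean of 5.67, Col9a1 with 1.33 and Col6a4 with 0.889 were not. A further 17 collagen symbols of the RefSeq gene table, Col4a2, Col6a1, Col6a3 and Col12a1 among them, were not analysed here.

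Primary cardiomyocytes were prepared from Sprague Dawley rats aged 1 to 2 days by enzyme digestion of the heart and kept in medium with 10% fetal bovine serum, per the labels. The 3 groups of 3 libraries were lenti-TCF7L2, a virus for overexpression of the Wnt pathway transcription factor TCF7L2, lenti-shTCF7L2, a virus with a short hairpin RNA against it, and lenti-NC, the control virus. Every group had virus for 16 h and 48 h of further culture, and no library came from uninfected cells. The species of the TCF7L2 insert, the promoters of the vectors and the number of animals per preparation are not given in the sources used here, nor is it stated that replicates are separate cultures. The spread behind each p-value may thus be technical.

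The targeted gene Tcf7l2 stood at 142, 206 and 85.7 CPM in the lenti-TCF7L2 libraries, 25.6, 30.3 and 25.9 CPM in the lenti-shTCF7L2 libraries and 40, 36.4 and 34.1 CPM in the lenti-NC libraries. The log2 difference was 1.97 (edgeR quasi-likelihood test, adjusted p = 8.46e-04) for lenti-TCF7L2 against lenti-NC. It was -0.43 (adjusted p = 0.511) for lenti-shTCF7L2 against lenti-NC, where the groups did not overlap, and its adjusted p was 0.0285 without lenti-TCF7L2 replicate 3. Total expected counts ran from 15085922 to 16478295 per library. The lenti-TCF7L2 replicate 3 library stood apart. The lowest correlation between replicates was 0.948 in lenti-TCF7L2 against 0.994 in lenti-shTCF7L2 and 0.994 in lenti-NC, and over the 1900 tested genes of 4000 bases or more the median log2 difference from lenti-NC was -0.56 in replicate 3, against -0.17 and 0.04 in replicates 1 and 2. In the comparisons with lenti-NC, each collagen whose call changes without this library is therefore given both ways.

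Collagens are the structural proteins of the extracellular matrix, built from chains that wind into triple helices. Fibrillar collagens assemble into the fibres that bear tension between heart muscle cells and that accumulate in fibrosis. Basement membrane collagens form the sheet-like network around each cardiomyocyte and vessel, and the remaining types link, anchor or decorate these structures. In the heart, fibroblasts make most fibrillar collagen, and endothelial and muscle cells contribute to the basement membrane. These are bulk libraries, so a change in the number of cells of a type and a change in RNA per cell cannot be told apart.

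Levels differed widely between the members on the scale of FPKM (fragments scaled to gene length and library size, as deposited). In lenti-NC, Col1a1 ranked 6 of 14607 genes by mean FPKM, Col1a2 ranked 21, Col4a1 59 and Col3a1 74. Col1a1 averaged 3801 ± 376 FPKM in lenti-TCF7L2, 3965 ± 87.1 in lenti-shTCF7L2 and 3027 ± 107 in lenti-NC (SD, n = 3 each). At the low end Col11a2 averaged 0.46 ± 0.02 FPKM in lenti-TCF7L2, 0.31 ± 0.0557 in lenti-shTCF7L2 and 0.23 ± 0.0361 in lenti-NC. The 24 genes together took 5.27%, 5.50% and 4.33% of all expected counts in the lenti-TCF7L2 libraries, 5.06%, 4.89% and 4.97% in the lenti-shTCF7L2 libraries and 4.49%, 4.29% and 4.34% in the lenti-NC libraries. The share was thus higher in all lenti-shTCF7L2 libraries and in replicates 1 and 2 of lenti-TCF7L2 than in any control library, while replicate 3 lay within the control range. Most of that share was fibrillar, and Col1a1 alone took between 2.02% and 2.45% in lenti-TCF7L2, between 2.31% and 2.41% in lenti-shTCF7L2 and between 1.74% and 1.86% in lenti-NC.

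**Figure D1:**
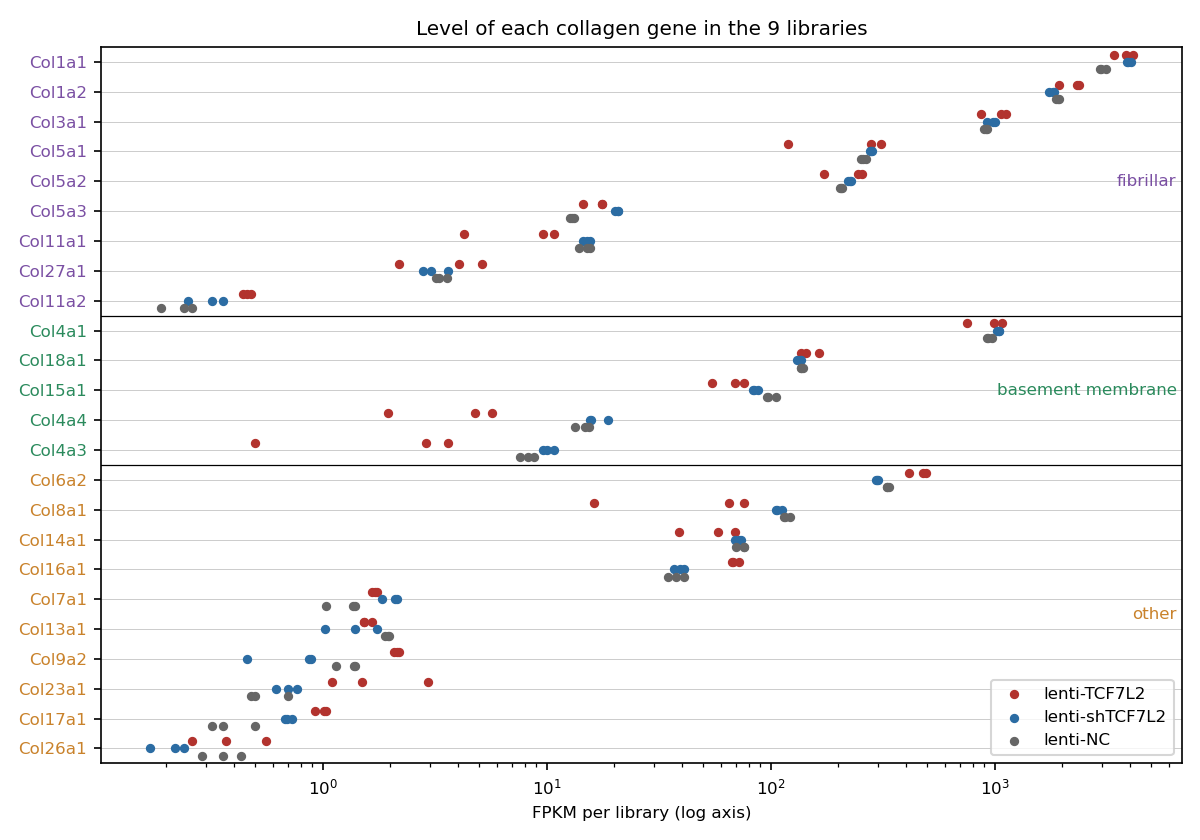
FPKM per library on a log axis for the 24 collagen genes, in blocks of fibrillar, basement membrane and other collagens, with 1 point per library for lenti-TCF7L2, lenti-shTCF7L2 and lenti-NC. Col1a1 leads and Col11a2 and Col26a1 close the range, and for Col4a3, Col4a4 and Col8a1 the lenti-TCF7L2 points lie left of all others.

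In lenti-TCF7L2 against lenti-NC, 11 of 24 collagens passed the test, an adjusted p under 0.05 over all 11761 genes. The basement membrane chains Col4a3, Col4a4 and Col15a1 and the fibrillar Col11a1 were lower. Col16a1, Col6a2, Col9a2, Col17a1 and Col23a1 of the other collagens were higher, as were the fibrillar Col5a3 and Col11a2. The 7 higher members are 29.2% of the list, where 18.0% of all genes tested were higher, and the 4 lower members are 16.7%, where 13.8% of all genes were lower. By class, 2 of 9 fibrillar genes rose and 1 fell, 3 of 5 basement membrane genes fell and 0 rose, and 5 of 10 other genes rose and 0 fell. Median log2 differences were 0.12 for fibrillar, -0.63 for basement membrane and 0.40 for other collagens, beside 0.03 over all genes tested.

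In lenti-shTCF7L2 against lenti-NC, 3 of 24 members passed, and all 3 were higher: the fibrillar Col5a3, the anchoring fibril chain Col7a1 and the transmembrane Col17a1. That is 12.5% of the list, where 1.32% of all genes tested were higher and 2.32% lower. In this fit of all 9 libraries 0 collagens were called lower, and 9 of 24 members had an unadjusted p under 0.05 in either direction. The share of all genes with an unadjusted p under 0.05 was not counted. Such counts, here and for the gene lists below, therefore cannot show that members or lists differ from other genes. DESeq2 called 4 higher and 1 lower, where 1.88% of all genes were higher and 3.79% lower. edgeR fitted to the 6 libraries compared called 6 higher and 6 lower, where 13.0% of all genes were higher and 15.5% lower, and edgeR with counts adjusted for gene length called 3 higher and 1 lower (3.26% and 5.16% of all genes). Median log2 differences were 0.08 for fibrillar, 0.10 for basement membrane and -0.11 for other collagens, beside 0.01 over all genes. Both comparisons share the lenti-NC libraries, and in the fit of all 9 libraries the spread of each gene also takes in lenti-TCF7L2 replicate 3.

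Set directly against each other, lenti-TCF7L2 and lenti-shTCF7L2 differed in 10 collagens, 5 higher and 5 lower in lenti-TCF7L2, or 20.8% of members each way. Over all genes tested 18.4% were higher and 14.7% lower. The 5 higher genes were Col6a2, Col9a2, Col16a1, Col17a1 and Col23a1, and the 5 lower were Col5a3, Col11a1, Col4a3, Col4a4 and Col15a1. With 1 library left out, the Col11a1 call was lost in 6 of 9 fits (edgeR adjusted p up to 0.0818). The Col15a1 call was lost in 4 of 9 (adjusted p up to 0.0792). Losses of the Col17a1 and Col23a1 calls are given below. With counts adjusted for gene length the split was 10 higher and 4 lower, where 22.7% of all genes were higher and 18.7% lower.

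**Figure D2:**
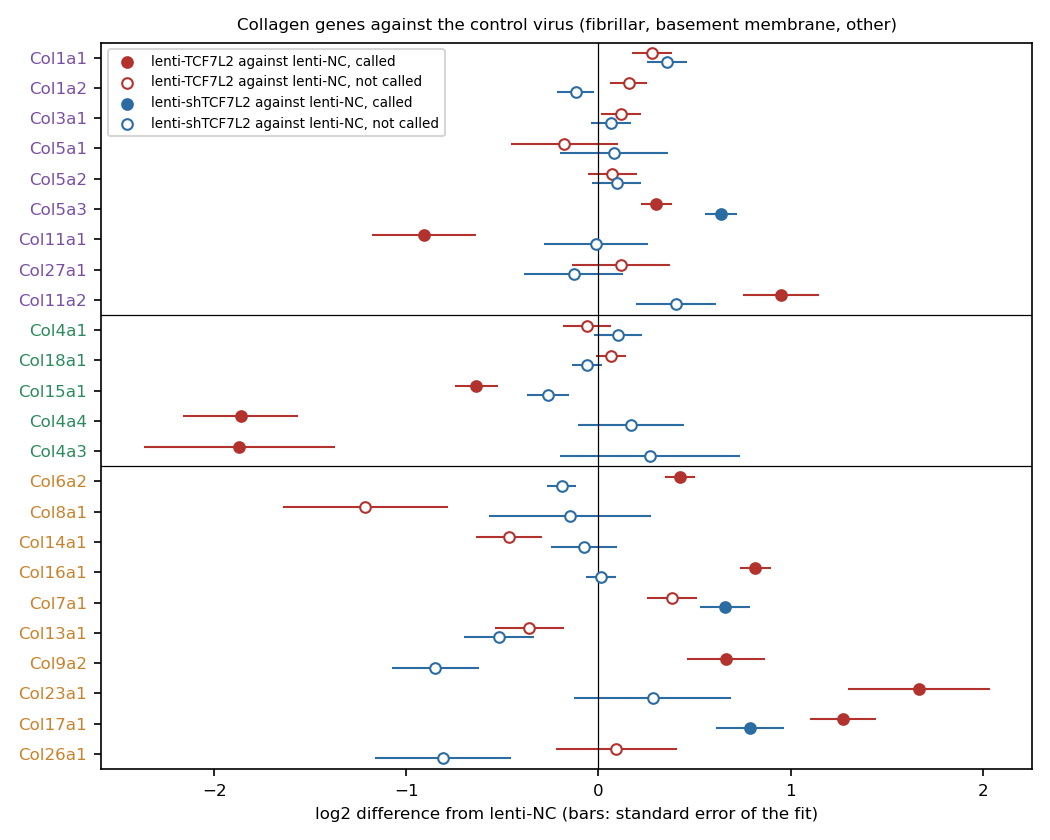
Log2 difference from lenti-NC for each collagen gene in lenti-TCF7L2 and in lenti-shTCF7L2, with bars for the standard error and filled points for an adjusted p under 0.05. The lenti-TCF7L2 points spread from -1.87 for Col4a3 to 1.67 for Col23a1, and the filled lenti-shTCF7L2 points are Col5a3, Col7a1 and Col17a1.

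Among the fibrillar genes the most abundant was Col1a1, which codes for the main chain of type I collagen, the chief fibre of heart interstitium and scar. CPM, the counts of a gene after scaling for library size, are given in the order of replicates 1, 2 and 3. Col1a1 had 22569, 24062 and 19852 CPM in the lenti-TCF7L2 libraries, 24053, 22879 and 23330.2 CPM in the lenti-shTCF7L2 libraries and 18961, 17751 and 18086 CPM in the lenti-NC libraries. Every library of both TCF7L2 viruses was above every control library. The log2 difference of Col1a1 was 0.28 (SE 0.10, adjusted p = 0.068) in lenti-TCF7L2 and 0.36 (SE 0.10, adjusted p = 0.109) in lenti-shTCF7L2, neither past the threshold. Without lenti-TCF7L2 replicate 3 both passed, at 0.33 (adjusted p = 5.60e-04) and 0.34 (adjusted p = 7.74e-04). Between the TCF7L2 viruses Col1a1 differed by -0.08 (SE 0.10, adjusted p = 0.582), and the groups overlapped.

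Col1a2, the partner chain of type I, had 10338, 10526 and 8636 CPM in the lenti-TCF7L2 libraries, 8281, 7855 and 8233 CPM in the lenti-shTCF7L2 libraries and 8909, 8667 and 8863 CPM in the lenti-NC libraries. Its log2 difference was 0.16 (SE 0.10, adjusted p = 0.24) in lenti-TCF7L2, where replicate 3 lay below all controls, and -0.12 (SE 0.10, adjusted p = 0.67) in lenti-shTCF7L2, where all libraries lay below the controls. Without replicate 3 the lenti-TCF7L2 value was 0.23 (adjusted p = 0.00512). The ratio of Col1a1 to Col1a2 in FPKM, taken within each library, was 1.67, 1.75 and 1.76 in lenti-TCF7L2, 2.22, 2.23 and 2.17 in lenti-shTCF7L2 and 1.63, 1.57 and 1.56 in lenti-NC. The groups did not overlap in any of the 3 comparisons, and each exact two-sided permutation test gave p = 0.1, the smallest that 3 against 3 libraries allow. Col1a1 overlaps the muscle gene Sgca in the RefSeq gene table, and strand-specific counting is not stated.

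Col3a1 codes for type III collagen, which forms mixed fibres with type I, and it had 5368, 5091 and 4165 CPM in the lenti-TCF7L2 libraries, 4768, 4449 and 4889.8 CPM in the lenti-shTCF7L2 libraries and 4546, 4435 and 4499.7 CPM in the lenti-NC libraries. The groups overlapped in every comparison, with log2 differences of 0.12 (SE 0.10, adjusted p = 0.409) in lenti-TCF7L2 and 0.07 (SE 0.10, adjusted p = 0.875) in lenti-shTCF7L2. Without replicate 3 the lenti-TCF7L2 value was 0.20 (adjusted p = 0.0157). The ratio of Col3a1 to Col1a1 in FPKM averaged 0.268 ± 0.0192 in lenti-TCF7L2, 0.245 ± 0.00962 in lenti-shTCF7L2 and 0.3005 ± 0.00678 in lenti-NC (SD, n = 3 each; exact permutation p = 0.1 in each of the 3 comparisons). It was lower in each library of either TCF7L2 virus than in any control library.

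Type V collagen sets the diameter of type I fibres and is built from Col5a1, Col5a2 and Col5a3 chains. Col5a3, the least abundant of the 3, rose under both viruses and rose more under the hairpin. It had 106, 106 and 88 CPM in the lenti-TCF7L2 libraries, 128, 127 and 125 CPM in the lenti-shTCF7L2 libraries and 81.5, 79.8 and 82.8 CPM in the lenti-NC libraries, and no groups overlapped. The log2 difference was 0.30 (SE 0.08, adjusted p = 0.0228) in lenti-TCF7L2, 0.64 (SE 0.08, adjusted p = 0.00512) in lenti-shTCF7L2 and -0.34 (SE 0.08, adjusted p = 0.0128) for lenti-TCF7L2 against lenti-shTCF7L2. The lenti-shTCF7L2 call was kept in 9 of 9 fits that each left out 1 library. The lenti-TCF7L2 call against lenti-NC was lost in 4 of them, without each lenti-NC library and without lenti-TCF7L2 replicate 1, with adjusted p up to 0.0833. Col5a1 did not pass in either comparison with lenti-NC, and its lenti-TCF7L2 libraries were uneven at 1556, 1715 and 665 CPM, against 1519.7, 1482 and 1447 CPM in lenti-NC. Its log2 difference was -0.18 (SE 0.28, adjusted p = 0.648), and 0.12 (adjusted p = 0.106) without replicate 3. Col5a2 gave 0.07 (SE 0.13, adjusted p = 0.682) in lenti-TCF7L2, and 0.21 (adjusted p = 0.00602) without replicate 3. The FPKM ratio of Col5a3 to Col5a1 was 0.0625, 0.0567 and 0.121 in lenti-TCF7L2, 0.0735, 0.0746 and 0.0734 in lenti-shTCF7L2 and 0.0490, 0.0492 and 0.0523 in lenti-NC, above the controls in every library of both viruses.

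The minor fibrillar chains of type XI, best known from cartilage, moved in opposite directions under lenti-TCF7L2. Col11a1 had 82.9, 73.4 and 32.7 CPM in the lenti-TCF7L2 libraries, 122, 117 and 113 CPM in the lenti-shTCF7L2 libraries and 120.0, 111 and 123 CPM in the lenti-NC libraries. Its lenti-TCF7L2 libraries were all below the others and replicate 3 was the lowest, with a log2 difference from lenti-NC of -0.91 (SE 0.27, adjusted p = 0.0332). That call was lost in 6 of 9 fits with 1 library left out, those without any lenti-NC or any lenti-shTCF7L2 library, with adjusted p up to 0.0912. Without lenti-TCF7L2 replicate 3 it was -0.61 (adjusted p = 1.51e-05). Col11a2 was scarce, with 2.84, 2.73 and 2.63 CPM in the lenti-TCF7L2 libraries, 2.18, 1.5 and 1.92 CPM in the lenti-shTCF7L2 libraries and 1.48, 1.15 and 1.6 CPM in the lenti-NC libraries, and differed by 0.95 (SE 0.20, adjusted p = 0.00679) in lenti-TCF7L2 without overlap. In lenti-shTCF7L2 Col11a1 and Col11a2 gave -0.01 (SE 0.27, adjusted p = 0.994) and 0.40 (SE 0.21, adjusted p = 0.416), with overlapping groups. Col27a1, a fibrillar chain of cartilage, gave 0.12 (adjusted p = 0.743) in lenti-TCF7L2, 0.38 (adjusted p = 0.0223) without replicate 3, and -0.13 (adjusted p = 0.908) in lenti-shTCF7L2.

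**Figure D3:**
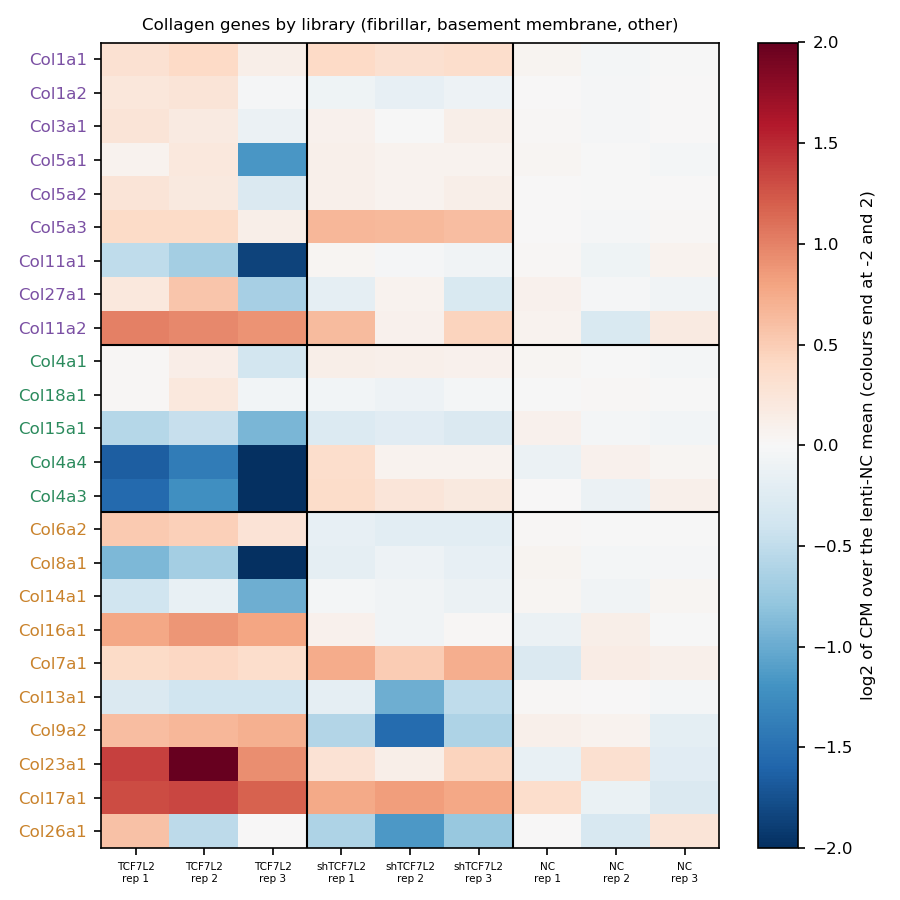
Log2 of CPM over the lenti-NC mean for each collagen gene (rows, in the blocks fibrillar, basement membrane and other) in each library (columns, lenti-TCF7L2, lenti-shTCF7L2 and lenti-NC from left to right), with colours ending at -2 and 2. In lenti-TCF7L2 the rows of Col4a3, Col4a4, Col8a1 and Col11a1 are blue in all 3 libraries, and Col5a1 is blue in replicate 3 alone.

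The deepest falls among the collagens under lenti-TCF7L2 were those of Col4a3 and Col4a4, chains of the type IV collagen network best known from the kidney glomerulus, whose loss in humans causes Alport syndrome. The pair lies head to head, and in the RefSeq table for build GRCr8 the starts on chromosome 9 are separated by 412 bases. The 250 bases before each start are shown because both genes fell together, written 5′ to 3′ on the strand of each gene. Capitals mark the 88 bases that both windows share, read in opposite directions. Col4a3 lies on the plus strand with its window at chr9:91323740-91323989, and Col4a4 on the minus strand with its window at chr9:91323578-91323827.
Col4a3: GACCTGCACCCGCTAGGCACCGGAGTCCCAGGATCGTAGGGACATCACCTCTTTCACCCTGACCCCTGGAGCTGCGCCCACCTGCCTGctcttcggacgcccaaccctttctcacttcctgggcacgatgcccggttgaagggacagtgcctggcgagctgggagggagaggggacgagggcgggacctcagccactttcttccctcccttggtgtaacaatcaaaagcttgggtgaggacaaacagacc
Col4a4: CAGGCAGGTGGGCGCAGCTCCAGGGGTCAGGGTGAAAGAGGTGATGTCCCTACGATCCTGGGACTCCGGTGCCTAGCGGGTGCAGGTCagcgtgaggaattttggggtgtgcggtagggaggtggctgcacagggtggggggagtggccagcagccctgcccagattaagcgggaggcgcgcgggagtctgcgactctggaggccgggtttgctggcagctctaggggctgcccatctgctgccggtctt

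Col4a3 had 14.4, 18.1 and 2.51 CPM in the lenti-TCF7L2 libraries, 54.7, 50.3 and 48.8 CPM in the lenti-shTCF7L2 libraries and 42.7, 39.5 and 45.7 CPM in the lenti-NC libraries. All lenti-TCF7L2 libraries were below all others, and replicate 3 was far below its own group. The log2 difference was -1.87 (SE 0.50, adjusted p = 0.0203) in lenti-TCF7L2 and 0.27 (SE 0.47, adjusted p = 0.892) in lenti-shTCF7L2, whose 3 libraries were above the controls. Without lenti-TCF7L2 replicate 3 the first of these was -1.41 (adjusted p = 2.77e-07), and the call was lost without each of the 3 lenti-NC libraries in turn (adjusted p up to 0.0606). For lenti-TCF7L2 against lenti-shTCF7L2 the difference was -2.14 (SE 0.50, adjusted p = 0.0106).

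Col4a4 had 5.55, 6.61 and 2.27 CPM in the lenti-TCF7L2 libraries, 22.2, 18.4 and 18.3 CPM in the lenti-shTCF7L2 libraries and 16, 18.5 and 17.8 CPM in the lenti-NC libraries, the same order of groups. It differed by -1.86 (SE 0.30, adjusted p = 0.00196) in lenti-TCF7L2 and by -2.03 (SE 0.30, adjusted p = 0.00101) between the TCF7L2 viruses, with both calls kept in 9 of 9 fits that left out 1 library. Without lenti-TCF7L2 replicate 3 the first value was -1.54 (adjusted p = 1.26e-06). In lenti-shTCF7L2 it gave 0.17 (SE 0.27, adjusted p = 0.879), and the groups overlapped. The gene model of Col4a4 in the tables spans 1190 bases, against 5020 for Col4a3, so FPKM levels of the pair are not set against each other.

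Col4a1, which codes for the widespread chain of the type IV network of most basement membranes, was among the most abundant genes and had 6501, 7031 and 4963 CPM in the lenti-TCF7L2 libraries, 6958, 6910.1 and 6821 CPM in the lenti-shTCF7L2 libraries and 6627, 6363 and 6265 CPM in the lenti-NC libraries. The lenti-TCF7L2 libraries lay on both sides of the controls, and the log2 difference was -0.06 (SE 0.12, adjusted p = 0.741). It was 0.06 (adjusted p = 0.454) without replicate 3 and 0.25 (adjusted p = 0.00888) with counts adjusted for gene length, so its direction depended on these choices. In lenti-shTCF7L2 Col4a1 gave 0.10 (SE 0.12, adjusted p = 0.807), with all 3 libraries above the controls. The FPKM ratio of Col4a1 to Col4a3 was 344, 296 and 1506 in lenti-TCF7L2, 96.9, 105 and 106 in lenti-shTCF7L2 and 118, 123 and 105 in lenti-NC, so the common chain outweighed Col4a3 more strongly in every lenti-TCF7L2 library than in any other (exact permutation p = 0.1 against either group).

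Col15a1 and Col18a1 code for the collagens that carry heparan or chondroitin sulfate chains in the basement membrane zone, and of this pair Col15a1 passed the test and Col18a1 did not. Col15a1 had 359.8, 391 and 283 CPM in the lenti-TCF7L2 libraries, 442, 457 and 438 CPM in the lenti-shTCF7L2 libraries and 567, 523 and 515 CPM in the lenti-NC libraries, with no overlap between any groups. The log2 difference was -0.63 (SE 0.11, adjusted p = 0.00291) in lenti-TCF7L2, kept in 9 of 9 fits with 1 library left out. In lenti-shTCF7L2 it was -0.26 (SE 0.11, adjusted p = 0.279), and -0.28 (adjusted p = 0.00322) without lenti-TCF7L2 replicate 3. Col18a1, the source of endostatin, gave 0.06 (SE 0.08, adjusted p = 0.543) in lenti-TCF7L2 and -0.06 (SE 0.08, adjusted p = 0.825) in lenti-shTCF7L2.

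**Figure D4:**
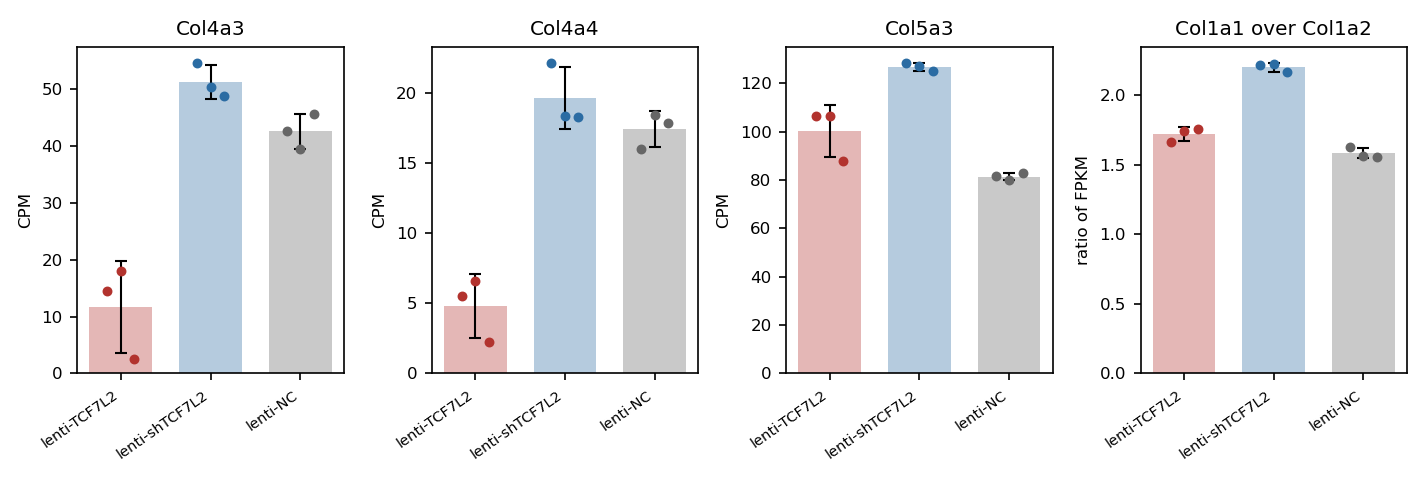
CPM of Col4a3, Col4a4 and Col5a3 and the FPKM ratio of Col1a1 to Col1a2 in lenti-TCF7L2, lenti-shTCF7L2 and lenti-NC, with bars for the mean, error bars for the SD and points for the 3 libraries. Col4a3 and Col4a4 are lowest in all lenti-TCF7L2 libraries, and Col5a3 and the ratio are highest in all lenti-shTCF7L2 libraries.

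The other collagens held 5 of the 7 rises under lenti-TCF7L2. Col6a2, a chain of the beaded microfibrils around muscle cells, had 1779, 1718 and 1499 CPM in the lenti-TCF7L2 libraries, 1106, 1077 and 1077 CPM in the lenti-shTCF7L2 libraries and 1255, 1237 and 1231 CPM in the lenti-NC libraries. The log2 difference was 0.42 (SE 0.08, adjusted p = 0.00363) in lenti-TCF7L2, and 0.62 (SE 0.08, adjusted p = 4.48e-04) against lenti-shTCF7L2. In lenti-shTCF7L2 Col6a2 lay below all controls at -0.19 (SE 0.08, adjusted p = 0.258), and at -0.21 (adjusted p = 0.00863) without lenti-TCF7L2 replicate 3.

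Col16a1 and Col9a2 code for fibril-associated collagens, which sit on the surface of fibres. Col16a1 had 348, 376 and 353 CPM in the lenti-TCF7L2 libraries, 217, 193 and 207 CPM in the lenti-shTCF7L2 libraries and 188, 221 and 203 CPM in the lenti-NC libraries. It rose evenly over the 3 lenti-TCF7L2 libraries, by 0.82 (SE 0.08, adjusted p = 1.80e-04) over lenti-NC and by 0.80 (SE 0.08, adjusted p = 1.32e-04) over lenti-shTCF7L2, with both calls kept in 9 of 9 fits that left out 1 library. The lenti-shTCF7L2 value against lenti-NC was 0.01 (SE 0.08, adjusted p = 0.975). Col9a2, mainly a cartilage gene, had 6.11, 6.29 and 6.45 CPM in the lenti-TCF7L2 libraries, 2.64, 1.37 and 2.59 CPM in the lenti-shTCF7L2 libraries and 4.24, 4.18 and 3.48 CPM in the lenti-NC libraries, so that no groups overlapped. It differed by 0.66 (SE 0.20, adjusted p = 0.0359) in lenti-TCF7L2, -0.85 (SE 0.23, adjusted p = 0.088) in lenti-shTCF7L2 and 1.51 (SE 0.22, adjusted p = 9.00e-04) between the TCF7L2 viruses. The call against lenti-NC was lost in 4 of 9 fits, without each lenti-NC library and without lenti-TCF7L2 replicate 1 (adjusted p up to 0.125). Without lenti-TCF7L2 replicate 3 the lenti-shTCF7L2 value was -0.87 (adjusted p = 0.0149).

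The transmembrane collagens Col17a1 and Col23a1 were scarce and rose under lenti-TCF7L2. Col17a1, a part of the hemidesmosomes that fix epithelia to the basement membrane, had 5.48, 5.59 and 5.02 CPM in the lenti-TCF7L2 libraries, 3.76, 3.98 and 3.78 CPM in the lenti-shTCF7L2 libraries and 2.83, 2.02 and 1.8 CPM in the lenti-NC libraries. No groups overlapped, and the log2 difference was 1.27 (SE 0.17, adjusted p = 8.28e-04) in lenti-TCF7L2 and 0.79 (SE 0.18, adjusted p = 0.0453) in lenti-shTCF7L2. The lenti-shTCF7L2 call was lost in 6 of 9 fits with 1 library left out, without lenti-NC replicate 2 or 3, lenti-TCF7L2 replicate 1 or any lenti-shTCF7L2 library (adjusted p up to 0.198). The difference between the TCF7L2 viruses, 0.48 (SE 0.16, adjusted p = 0.0472), was also lost in 6 of 9 fits, without lenti-NC replicate 2, lenti-TCF7L2 replicate 1 or 2 or any lenti-shTCF7L2 library. Col23a1 had 4.03, 8.01 and 2.99 CPM in the lenti-TCF7L2 libraries, 1.91, 1.7 and 2.12 CPM in the lenti-shTCF7L2 libraries and 1.41, 1.95 and 1.34 CPM in the lenti-NC libraries, with lenti-TCF7L2 replicate 2 the highest. It differed by 1.67 (SE 0.37, adjusted p = 0.00898) in lenti-TCF7L2, 0.28 (SE 0.41, adjusted p = 0.856) in lenti-shTCF7L2 and 1.38 (SE 0.36, adjusted p = 0.0171) between the TCF7L2 viruses, the last of these lost without lenti-shTCF7L2 replicate 1 or 2 (adjusted p up to 0.0656). Col13a1, the remaining transmembrane member, gave -0.36 (adjusted p = 0.154) in lenti-TCF7L2 and -0.52 (adjusted p = 0.187) in lenti-shTCF7L2, with both viruses below every control library. The lenti-shTCF7L2 value was -0.53 (adjusted p = 0.0477) without lenti-TCF7L2 replicate 3.

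Col7a1 forms the fibrils that anchor skin to its basement membrane, and it had 15.7, 15.9 and 15.3 CPM in the lenti-TCF7L2 libraries, 20, 17 and 19.7 CPM in the lenti-shTCF7L2 libraries and 9.75, 13.3 and 12.9 CPM in the lenti-NC libraries. Both viruses lay above all controls, by 0.39 (SE 0.13, adjusted p = 0.051) in lenti-TCF7L2 and by 0.66 (SE 0.13, adjusted p = 0.0268) in lenti-shTCF7L2, where it passed. Without replicate 3 the lenti-TCF7L2 value also passed, at 0.38 (adjusted p = 0.0302). The lenti-shTCF7L2 call was kept in 2 of 9 fits with 1 library left out, the ones without lenti-TCF7L2 replicate 2 or 3, and the adjusted p reached 0.121 in the others. Col8a1, a short-chain collagen of vessel walls, had 157, 182 and 39.4 CPM in the lenti-TCF7L2 libraries, 257, 272 and 261 CPM in the lenti-shTCF7L2 libraries and 304, 284 and 288 CPM in the lenti-NC libraries. The lenti-TCF7L2 libraries were below all others, and the log2 difference was -1.21 (SE 0.43, adjusted p = 0.0579), or -0.80 (adjusted p = 8.12e-07) without replicate 3. Col14a1, a fibril-associated collagen, gave -0.47 (SE 0.17, adjusted p = 0.0668) in lenti-TCF7L2 with all libraries below the controls, and -0.28 (adjusted p = 0.00567) without replicate 3. Col26a1, the member with the lowest mean count, had 1.51, 0.699 and 1.02 CPM in the lenti-TCF7L2 libraries, 0.66, 0.456 and 0.597 CPM in the lenti-shTCF7L2 libraries and 1.01, 0.808 and 1.2 CPM in the lenti-NC libraries, with a log2 difference of 0.09 (SE 0.32, adjusted p = 0.84) in lenti-TCF7L2 and -0.81 (SE 0.35, adjusted p = 0.304) in lenti-shTCF7L2, where all libraries lay below the controls.

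The low values of lenti-TCF7L2 replicate 3 were uneven across the collagens and were not ordered by the deposited gene length. Measured as log2 CPM of replicate 3 minus the mean of replicates 1 and 2, 15 of 24 members were within 0.5 and 6 were lower by at least 1. Those 6 were Col4a3 at -2.63, Col8a1 at -2.09, Col4a4 at -1.36, Col5a1 at -1.30, Col11a1 at -1.25 and Col27a1 at -1.03. Col7a1, the longest gene model among the members at 9170 bases, was at -0.05. Across the 24 members the correlation of this value with log2 length was 0.207 (Pearson's r), and across the 11761 genes tested it was -0.407. Col4a4 enters the first of these at its short deposited length of 1190 bases, and the value without it was not computed. Both are descriptions over genes that share the same libraries.

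**Figure D5:**
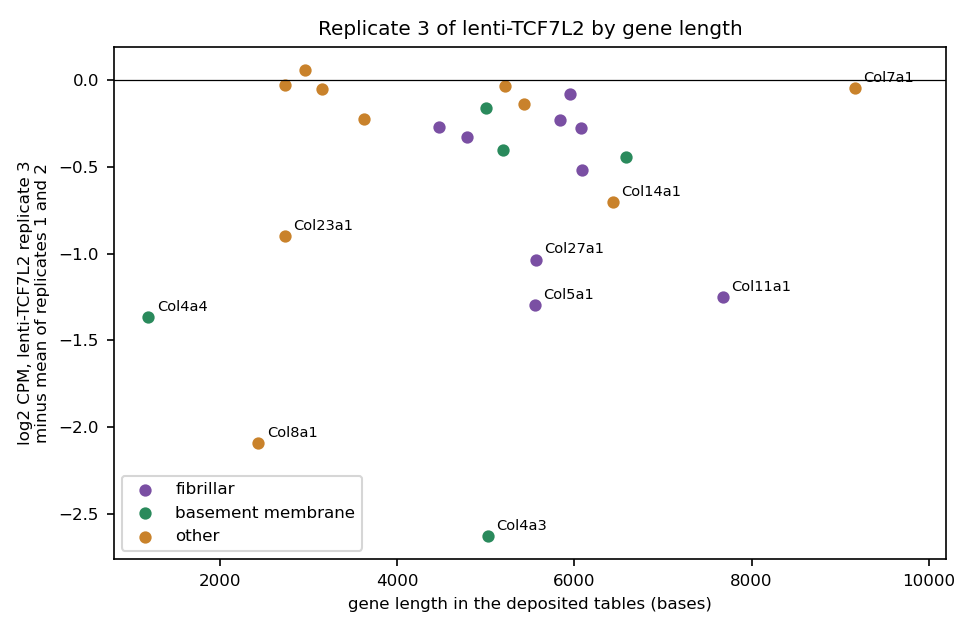
Log2 CPM of lenti-TCF7L2 replicate 3 minus the mean of lenti-TCF7L2 replicates 1 and 2 for each collagen gene, against gene length in bases, coloured by class. Most genes lie between 0 and -0.5 at all lengths, and Col4a3 and Col8a1 lie at or below -2.

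Leaving lenti-TCF7L2 replicate 3 out changed the number of calls more than their direction. In lenti-TCF7L2 against lenti-NC 13 members were then higher and 6 lower, where 21.2% of all genes were higher and 21.5% lower. Of the fibrillar genes 7 of 9 were higher and 1 lower, of the basement membrane genes 0 of 5 were higher and 3 lower, and of the other collagens 6 of 10 were higher and 2 lower. In lenti-shTCF7L2 against lenti-NC 4 were higher and 4 lower, where 6.51% of all genes were higher and 10.9% lower. For lenti-TCF7L2 against lenti-shTCF7L2 the numbers were 8 and 7, where 23.3% and 22.3% of all genes passed. With counts adjusted for gene length over all 9 libraries, lenti-TCF7L2 against lenti-NC gave 14 higher and 6 lower members, where 22.0% of all genes were higher and 17.6% lower. Col4a1 and Col18a1 were then among the higher ones at 0.25 (adjusted p = 0.00888) and 0.28 (adjusted p = 0.017). Col4a3 and Col4a4 gave -1.75 (adjusted p = 0.00845) and -1.96 (adjusted p = 0.00226) in that fit, Col4a4 adjusted at its short deposited length of 1190 bases.

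Of the genes that act on collagen after translation, more rose than fell under lenti-TCF7L2. Of 31 tested genes for hydroxylases, chaperones, proteinases and cross-linking enzymes of collagen, 14 rose and 1 fell in lenti-TCF7L2 against lenti-NC, with a median log2 difference of 0.21, where 18.0% of all genes were higher and 13.8% lower. P3h3, of the prolyl hydroxylase family, averaged 164 ± 18.4 CPM in lenti-TCF7L2 against 111 ± 2.46 CPM in lenti-NC, a difference of 0.56 (adjusted p = 0.00136). P4ha2, a catalytic subunit of prolyl hydroxylase, averaged 446 ± 39.8 CPM in lenti-TCF7L2 against 318 ± 9.6 CPM in lenti-NC, a difference of 0.49 (adjusted p = 0.00219). The cross-linking enzyme gene Loxl1 differed by 0.40 (adjusted p = 0.00225). The gene that fell was P3h2, a hydroxylase that acts on basement membrane collagen, with 33.9 ± 4.4 CPM in lenti-TCF7L2 against 61.7 ± 6.81 CPM in lenti-NC and a difference of -0.86 (adjusted p = 8.76e-04). In lenti-shTCF7L2 against lenti-NC none of the 31 passed with edgeR or DESeq2, and 6 had an unadjusted p under 0.05. With edgeR 1.32% of all genes were higher and 2.32% lower there. The 2 most abundant, Sparc and P4hb, gave -0.05 (adjusted p = 0.884) and -0.17 (adjusted p = 0.364). Between the TCF7L2 viruses 14 were higher and 1 lower, where 18.4% of all genes were higher and 14.7% lower. Plod1, Loxl3, Loxl1 and Fkbp10 led, at 0.55 (adjusted p = 9.75e-04), 0.55 (adjusted p = 0.00103), 0.50 (adjusted p = 5.64e-04) and 0.40 (adjusted p = 9.80e-04). Without lenti-TCF7L2 replicate 3 the counts were 20 higher and 3 lower for lenti-TCF7L2 and 3 higher and 6 lower for lenti-shTCF7L2, each against lenti-NC, where 21.2% of all genes were higher and 21.5% lower for lenti-TCF7L2 and 6.51% and 10.9% for lenti-shTCF7L2.

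Other components of the basement membrane fell along with Col4a3, Col4a4 and Col15a1. Of 10 tested laminin, nidogen and related genes, 6 fell and 0 rose in lenti-TCF7L2 against lenti-NC, with a median of -0.53. Over all genes tested 13.8% were lower and 18.0% higher in lenti-TCF7L2, and 2.32% and 1.32% in lenti-shTCF7L2. The laminin chain gene Lamb3 averaged 172 ± 6.03 CPM in lenti-TCF7L2 against 294 ± 18 CPM in lenti-NC, a difference of -0.77 (adjusted p = 1.58e-04). Lamb2 and the nidogen gene Nid2 differed by -0.50 (adjusted p = 0.00446) and -0.56 (adjusted p = 0.0211). In lenti-shTCF7L2 0 of 10 passed with edgeR or DESeq2 and 2 had an unadjusted p under 0.05, and the abundant Lamc1 and Lama5 gave -0.12 (adjusted p = 0.86) and -0.00 (adjusted p = 0.996). Between the TCF7L2 viruses 6 were lower and 0 higher, where 14.7% of all genes were lower and 18.4% higher. Lamb3 gave -0.54 (adjusted p = 6.82e-04) there. In the fit without lenti-TCF7L2 replicate 3, 1 was higher and 6 lower in lenti-TCF7L2, and 2 were higher and 2 lower in lenti-shTCF7L2, each against lenti-NC. That fit called 21.2% of all genes higher and 21.5% lower in lenti-TCF7L2, and 6.51% and 10.9% in lenti-shTCF7L2.

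Of 8 tested genes for collagen receptors and uptake, 1 rose and 1 fell in lenti-TCF7L2 against lenti-NC. Over all genes tested 18.0% were higher and 13.8% lower in lenti-TCF7L2, and 1.32% and 2.32% in lenti-shTCF7L2. Ctsk, the collagen-degrading cathepsin K, averaged 78.2 ± 11.2 CPM in lenti-TCF7L2 against 48.8 ± 3.86 CPM in lenti-NC, a difference of 0.68 (adjusted p = 0.00202). The integrin chain Itgb1 averaged 2156 ± 105 CPM in lenti-TCF7L2 against 2702 ± 73.2 CPM in lenti-NC, a difference of -0.33 (adjusted p = 0.0105). In lenti-shTCF7L2 0 of 8 passed with edgeR or DESeq2 and 0 had an unadjusted p under 0.05. Between the TCF7L2 viruses 2 were higher, Ctsk at 0.48 (adjusted p = 0.00921) and the endocytic receptor gene Mrc2 at 0.62 (adjusted p = 0.0457). Of all genes 18.4% were higher and 14.7% lower in that comparison. Leaving out lenti-TCF7L2 replicate 3, 2 were higher and 3 lower in lenti-TCF7L2 and 0 higher and 2 lower in lenti-shTCF7L2, each against lenti-NC. The shares of all genes were then 21.2% and 21.5% in lenti-TCF7L2, and 6.51% and 10.9% in lenti-shTCF7L2.

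TGF-beta is the best known inducer of fibrillar collagen. Of 16 tested genes of its signal, 3 rose and 3 fell in lenti-TCF7L2 against lenti-NC, with a median of -0.12. These counts lay close to the shares of all genes tested, 18.0% higher and 13.8% lower. In lenti-shTCF7L2 those shares were 1.32% and 2.32%. The ligand genes went apart, with Tgfb1 at 155 ± 34.6 CPM in lenti-TCF7L2 against 84.2 ± 1.8 CPM in lenti-NC and a difference of 0.88 (adjusted p = 0.00152), and Tgfb2 at 204 ± 37.7 CPM in lenti-TCF7L2 against 352 ± 18.9 CPM in lenti-NC and a difference of -0.79 (adjusted p = 0.00197). The target gene Tgfbi differed by -0.56 (adjusted p = 7.66e-04). In lenti-shTCF7L2 Tgfbi was the 1 gene of 16 that passed, at 67.8 ± 0.899 CPM in lenti-shTCF7L2 against 89.4 ± 2.53 CPM in lenti-NC and a difference of -0.40 (adjusted p = 0.0205). DESeq2 called 3 lower there and 0 higher, where 3.79% of all genes were lower and 1.88% higher. Between the TCF7L2 viruses 3 were higher and 2 lower, where 18.4% of all genes were higher and 14.7% lower. Among them were Tgfb2 at -0.72 (adjusted p = 0.00265), Ltbp3 at 0.36 (adjusted p = 0.00275) and Tgfb1 at 0.60 (adjusted p = 0.0082). With lenti-TCF7L2 replicate 3 left out, 5 were higher and 4 lower in lenti-TCF7L2 and 2 higher and 6 lower in lenti-shTCF7L2, each against lenti-NC. Of all genes 21.2% were then higher and 21.5% lower in lenti-TCF7L2, and 6.51% and 10.9% in lenti-shTCF7L2. For lenti-TCF7L2 against lenti-shTCF7L2, 11 were then higher and 3 lower, with a median of 0.23, where 23.3% of all genes were higher and 22.3% lower.

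Markers of other cell types moved with the groups as well, and their part in the collagen results was not tested. Of 11 tested fibroblast markers that are not collagens, 6 rose and 2 fell in lenti-TCF7L2, and 0 rose and 6 fell in lenti-shTCF7L2, each against lenti-NC. Over all genes tested 18.0% were higher and 13.8% lower in lenti-TCF7L2, and 1.32% and 2.32% in lenti-shTCF7L2. The marker counts in lenti-shTCF7L2 were 0 and 9 without lenti-TCF7L2 replicate 3, where 6.51% of all genes were higher and 10.9% lower. The proteoglycan gene Dcn averaged 1773 ± 191 CPM in lenti-TCF7L2, 494 ± 27.7 in lenti-shTCF7L2 and 948 ± 114 in lenti-NC. Lum, Fbln1 and Tcf21 had the same order, with lenti-shTCF7L2 differences of -0.67 (adjusted p = 0.0135), -1.32 (adjusted p = 0.00512) and -1.01 (adjusted p = 0.00141), and Lum and Fbln1 differences of 0.98 (adjusted p = 3.75e-04) and 1.32 (adjusted p = 6.60e-04) in lenti-TCF7L2. Thy1 fell in lenti-TCF7L2, by -0.59 (adjusted p = 0.00125). The summed level of the 11 genes ran from 13056 to 25001 CPM in lenti-TCF7L2, 16337 to 17246 in lenti-shTCF7L2 and 21470 to 22002 in lenti-NC. All cardiomyocyte markers of the list were present, at sums of 20351 to 25227 CPM in lenti-TCF7L2, 42260 to 44025 in lenti-shTCF7L2 and 45586 to 47834 in lenti-NC. Of these 10 genes 9 fell in lenti-TCF7L2 and 0 passed in lenti-shTCF7L2 with edgeR, where 1 had an unadjusted p under 0.05 and DESeq2 called 1 lower. With lenti-TCF7L2 replicate 3 left out edgeR called 10 lower in lenti-TCF7L2 and 2 lower in lenti-shTCF7L2. Of all genes 21.5% and 10.9% were then lower. Myh6, the alpha myosin heavy chain gene, differed by -1.45 (adjusted p = 2.41e-05) in lenti-TCF7L2 against lenti-NC.

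For the counts that follow, 18.0% of all genes were higher and 13.8% lower in lenti-TCF7L2, and 1.32% and 2.32% in lenti-shTCF7L2. With DESeq2 these shares were 16.1% and 14.9%, and 1.88% and 3.79%. Without lenti-TCF7L2 replicate 3 they were 21.2% and 21.5%, and 6.51% and 10.9%. No such share was counted for an unadjusted p under 0.05. Of 10 endothelial markers 9 rose in lenti-TCF7L2 against lenti-NC, Pecam1 from this list averaging 46.7 ± 11.7 CPM in lenti-TCF7L2 against 8.06 ± 1.16 CPM in lenti-NC, a difference of 2.54 (adjusted p = 8.53e-05). Their sum ran from 175 to 252 CPM in lenti-TCF7L2, 90.7 to 91.8 in lenti-shTCF7L2 and 86.9 to 109.6 in lenti-NC. In lenti-shTCF7L2 0 of 10 passed with edgeR or DESeq2, and 1 had an unadjusted p under 0.05. DESeq2 called 9 higher and 1 lower in lenti-TCF7L2, and 1 was higher in lenti-shTCF7L2 without lenti-TCF7L2 replicate 3. Of 10 smooth muscle and pericyte markers 2 rose in lenti-TCF7L2, Pdgfrb by 0.45 (adjusted p = 0.018) and Kcnj8 by 1.15 (adjusted p = 0.00136), and Cnn1 rose in lenti-shTCF7L2, by 0.59 (adjusted p = 0.0118). DESeq2 called 2 higher and 1 lower in lenti-TCF7L2. Without replicate 3, 4 were higher and 2 lower there, the 2 being Acta2 at -0.29 (adjusted p = 0.0111) and Cspg4 at -0.26 (adjusted p = 0.0106). The sum of the 10 ran from 7151 to 8237 CPM in lenti-TCF7L2, 7560.0 to 7726 in lenti-shTCF7L2 and 7771 to 7886 in lenti-NC. Of 5 tested epicardial markers 2 rose in lenti-TCF7L2, Wt1 by 0.46 (adjusted p = 0.027) and Krt19 by 1.61 (adjusted p = 0.00911), and 0 passed in lenti-shTCF7L2 with edgeR, where 1 had an unadjusted p under 0.05 and DESeq2 called 1 lower. Leaving out lenti-TCF7L2 replicate 3 gave 3 higher in lenti-TCF7L2 and 2 lower in lenti-shTCF7L2. Their sums ran from 96.6 to 116 CPM in lenti-TCF7L2, 70.9 to 77.7 in lenti-shTCF7L2 and 85.8 to 103 in lenti-NC. Of 5 tested macrophage markers 3 rose in lenti-TCF7L2, Cd68 by 1.17 (adjusted p = 3.75e-04), and 1 rose in lenti-shTCF7L2, Csf1r by 1.32 (adjusted p = 0.0263). Their sums were 57.3 to 62.0 CPM in lenti-TCF7L2, 28.7 to 31.9 in lenti-shTCF7L2 and 31.6 to 34.6 in lenti-NC. Of 3 tested Schwann and chondrogenic markers, which could bear on the cartilage chains Col11a1, Col11a2 and Col9a2, 0 passed in either comparison with lenti-NC with edgeR or DESeq2, and 1 in lenti-TCF7L2 and 2 in lenti-shTCF7L2 had an unadjusted p under 0.05. In lenti-shTCF7L2 1 was higher and 1 lower without lenti-TCF7L2 replicate 3. The chondrogenic gene Acan averaged 3.59 ± 1.51 CPM in lenti-TCF7L2, 8.28 ± 0.574 in lenti-shTCF7L2 and 5.17 ± 1.47 in lenti-NC.

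Outside the collagens, the genes whose log2 CPM followed Col1a1 most closely over the 9 libraries were Dhx37 (Pearson's r = 0.970), Slc35e3 (0.967), Aldh1l2 (0.964), Reln (0.952) and Etv4 (0.950). For Col4a1 they were Fbxo42 (0.991), Pkd1 (0.990), Kif21b (0.990), Nup98 (0.989) and Itpripl2 (0.988). These correlations describe 9 libraries that include lenti-TCF7L2 replicate 3 and carry no p-value.

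Promoter windows of 300 bases, 250 before and 50 after the start, were found for 20 of 24 members in the RefSeq promoter table (build GRCr8). Searched on both strands, the TCF/LEF motif CTTTGAT was in 0 of the 20 windows, where 3.63% of 33469 rat windows hold it, and its variant CTTTGTT in 0 of 20, where 5.98% hold it. These letters are thus not in the windows, which says nothing of sites elsewhere. The TATA box motif TATAAA was in 3 of 20 windows, those of Col1a2, Col13a1 and Col17a1, where 14.2% of all windows hold it. Counted from the start, the matches begin at -170 in Col1a2, at -237 in Col13a1 and at -161 and -112 in Col17a1. Whether they act as TATA boxes was not tested. With no TCF/LEF match in any member window, no matches of different motifs overlapped.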

How the data were processed

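Per the labels, messenger RNA was enriched with oligo(dT) beads, and NEBNext Ultra libraries were read on a BGISEQ-500. For every library the authors deposited a table of expected counts (estimated fragments per gene, not normalised), FPKM and gene length, per the file headers. The submitters' processing notes name HISAT2, Bowtie2, RSEM 1.3.1, DESeq2 1.4.5 and build rn6, without roles. Groups came from the sample titles, and a gene absent from a table was set to 0.

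Expected counts were rounded, filtered with filterByExpr, scaled with TMM and tested with edgeR 4.0.16 (quasi-likelihood test, group as the one term, all 9 libraries) in R 4.3.3. P-values were adjusted by Benjamini and Hochberg over all 11761 genes, and an adjusted p under 0.05 was a call. Each standard error came from the log2 difference and its F value. Typical variation between replicates was 14.9% (biological coefficient of variation). Ratios between chains were compared with exact two-sided permutation tests. The procedure was tested on simulated data, with a spread that followed the trend over genes. Of simulated log2 changes of 0.585 it recovered 27% for lenti-TCF7L2 and 35% for lenti-shTCF7L2, each against lenti-NC. Of changes of 1 it recovered 94% and 92%. Small differences can thus fail to pass. No simulated library stood apart as lenti-TCF7L2 replicate 3 does, so recovery for genes uneven in that library was not measured. Col8a1, at -1.21 (SE 0.43) in lenti-TCF7L2 against lenti-NC, did not pass. Members, classes and gene lists were chosen with earlier results of these data known. Members called against lenti-NC and the 5 of highest mean FPKM are given in full, and from each list up to 4 genes of smallest adjusted p per comparison, or up to 2 by mean level where none passed. Some genes that this rule names are not reported here. Other settings were RLE scaling, upper-quartile scaling, every listed gene kept, a stricter filter (10 counts in 6 libraries), DESeq2 1.42.0, limma 3.58.1 on log2 FPKM (pseudocount 1 or 0.1), a replicate block, the 6 libraries compared, library sizes without the top 10 genes, a length adjustment (lowess, span 0.3) and each library left out. Coordinates of rn6 were not used here. In the RefSeq table of build GRCr8, 13 of 24 members overlap another gene, 1 of them a protein-coding gene.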

Additional observations from a re-analysis of the deposited data

How the results depend on the processing

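Collagens called in lenti-TCF7L2 against lenti-NC, 11 in all, became 20 with the length adjustment, where 22.0% of all genes were higher and 17.6% lower. They became 22 with it and without lenti-TCF7L2 replicate 3, where 25.0% and 22.4% of all genes passed. With 1 library left out they were 7 to 19. There were 19 without lenti-TCF7L2 replicate 3 (21.2% and 21.5% of all genes). There were 7 without any 1 lenti-NC library (11.3% to 11.7% and 9.09% to 9.28%). The 3 of lenti-shTCF7L2 against lenti-NC, where 1.32% of all genes were higher and 2.32% lower, became 5 with DESeq2 (1.88% and 3.79% of all genes) and 1 with limma on log2(FPKM + 0.1) (1.85% and 2.40%). That limma fit tested 21 collagens, those with a mean FPKM of 1 or more. Col17a1, with a mean of 0.693 FPKM, was not among them. The 3 became 12 with the 6 libraries compared, 6 each way (13.0% and 15.5%), and 11 with the length adjustment without lenti-TCF7L2 replicate 3 (9.60% and 12.5%). With 1 library left out they were 1 to 8, 8 without lenti-TCF7L2 replicate 3 (6.51% and 10.9%). The fits with 1 called 0.186% to 0.937% of all genes higher and 0.557% to 1.93% lower. The 10 between the TCF7L2 viruses became 18 with the length adjustment without lenti-TCF7L2 replicate 3 (25.9% and 24.4%). With 1 library left out they were 6 to 15. There were 6 without lenti-shTCF7L2 replicate 1 or 2 (12.3% to 12.8% of all genes higher and 10% to 10.6% lower). There were 15 without lenti-TCF7L2 replicate 3 (23.3% and 22.3%). The causes of these moves were not tested. In the fit of all 9 libraries the 3 groups share 1 estimate of the spread per gene. Without lenti-TCF7L2 replicate 3, Col1a1 in lenti-shTCF7L2 went from 0.36 (SE 0.10) to 0.34 (SE 0.054). Col15a1 went from -0.26 (SE 0.11) to -0.28 (SE 0.055). The scarce Col11a2 went the other way in SE, from 0.40 (SE 0.21) to 0.39 (SE 0.24). Labels give the replicate numbers no shared culture, and correlations of same-numbered libraries ran from -0.067 to 0.151, with 2 of 9 over 0.1. With so few libraries per group, these values cannot decide whether same-numbered libraries share a preparation. With a replicate block the counts were 11 (16% of all genes higher and 13.4% lower), 1 (0.689% and 1.39%) and 9 (16.8% and 14.3%).

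Among the 24 collagens, log2 differences changed sign as follows, each in a value that had not passed the test. In lenti-TCF7L2 against lenti-NC, Col4a1 (-0.06) gave 0.25 with the length adjustment, 0.20 with it and without lenti-TCF7L2 replicate 3, and -0.170 to 0.058 with 1 library left out. Col5a1 (-0.18) gave 0.0057, 0.23 and -0.425 to 0.123 in the same order. With 1 library left out, Col5a2 (0.07) gave -0.040 to 0.209, Col18a1 (0.06) -0.020 to 0.099, Col27a1 (0.12) -0.167 to 0.375 and Col26a1 (0.09) -0.236 to 0.314. In lenti-shTCF7L2 against lenti-NC, Col16a1 (0.01) gave -0.00267 with the stricter filter and -0.042 to 0.076 with 1 library left out. Col11a1 (-0.01) gave 0.0064 with upper-quartile scaling, 0.018 with limma at a pseudocount of 1 with or without the filter, 0.020 at 0.1, 0.011 with the length adjustment, 0.014 with it and without lenti-TCF7L2 replicate 3, and -0.055 to 0.020 with 1 library left out. For lenti-TCF7L2 against lenti-shTCF7L2 with the length adjustment, Col7a1 (-0.27) gave 0.16, Col1a1 (-0.08) 0.17, Col4a1 (-0.16) 0.12 and Col5a2 (-0.02) 0.23. With it and without lenti-TCF7L2 replicate 3, Col1a1 gave 0.068, Col4a1 0.069, Col5a1 (-0.26) 0.12 and Col5a2 0.22. Col5a2 gave 0.010 with upper-quartile scaling. With 1 library left out, Col3a1 (0.05) gave -0.034 to 0.152, Col5a1 -0.505 to 0.059, Col5a2 -0.135 to 0.130, Col27a1 (0.25) -0.038 to 0.520 and Col13a1 (0.16) -0.039 to 0.349. Of all other values of single collagens and class medians, 1557 stayed the same, 66 lost a call, 88 gained one and 15 moved beyond the spread between replicates. For a single collagen, the same means an unchanged direction and side of the threshold. For a class median it means a move smaller than that spread, and the sign of class medians was not checked. Scarce members such as Col26a1, Col11a2 and Col23a1 rest on few counts, so their differences are known less precisely.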
